A study of Drosophila melanogaster with 10 samples.

Results

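The UDP-glycosyltransferase (UGT) genes of *Drosophila melanogaster* were examined in wild-type and *tbrd-1* mutant testes. A gene was included when the platform annotation paired a probe set with that gene alone and its current symbol began with Ugt and a digit. The rule gave 35 genes of the 11982 genes with such a probe set, and each of the 35 was measured by 1 probe set. The symbols fall into 13 families by the number after Ugt, of which families 37, 35, 36 and 303 held 8, 6, 4 and 4 genes. Families 302 and 49 held 3 genes each and 7 families a single gene.

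RNA of whole testes was hybridised to Affymetrix *Drosophila* Genome 2.0 arrays, 5 from wild-type flies of strain w1118 and 5 from homozygous *tbrd-1* mutants (tbrd-1 1), all aged 0 to 2 days, with 25 animals pooled for each array. tBRD-1 is a bromodomain protein of primary spermatocytes, the cells that prepare for meiosis, and the mutant allele carries a P element with the *white* gene inserted in *tbrd-1*. The flies carry the mutation in the whole body, so testis cells and any attached tissue have the same genotype. The paper describes the protein itself as expressed in primary spermatocytes only. Mutant testes complete meiosis but fail in spermatid differentiation. The comparison asks which UGT transcripts differ between testes with and without this protein.

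UGTs are enzymes of the endoplasmic reticulum membrane whose active site faces the lumen. They transfer the sugar of a UDP-sugar, in insects mostly glucose, to small lipophilic molecules, which become soluble and can be excreted. In flies the family is known for the inactivation of plant toxins, insecticides and odorants, with high levels in gut, Malpighian tubule (the excretory organ), fat body and antenna.

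Signals are the deposited normalized intensities, a linear scale without unit. Changes are log2-fold changes of mutant against wild-type from limma, with p-values adjusted over 18769 probe sets by the Benjamini-Hochberg method. Calls required a change of 1 or more in either direction together with an adjusted p no higher than 0.05. *tbrd-1* itself fell from 787 ± 140 in wild-type to 13.8 ± 2.28 in mutant testes (SD, n = 5 each), a log2-fold change of -5.83. The annotation does not say where the probes lie relative to the insertion.

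The arrays differed in transcripts of other organs. The mean log2 signal of 32 measured gut digestive enzymes, of 42 listed, was 7.33 to 8.46 on 4 arrays (replicates 1, 3 and 4 of wild-type and replicate 3 of the mutant) and 4.8 to 5.7 on the other 6. It ranged from 4.8 to 8.46 in wild-type and from 4.85 to 7.33 in mutant testes. For 9 of 10 Malpighian tubule genes the mean was 7.9 to 9.54 in wild-type and 7.74 to 9.05 in mutant testes. Split at the middle of this range, replicates 1, 3 and 5 of wild-type and replicate 2 of the mutant were tubule-bright. They had 8.71 to 9.54, and the other 6 arrays 7.74 to 8.43, a smaller gap than for the gut enzymes. *Ebp* and *EbpII*, from the ejaculatory bulb, averaged 12.05 to 13.41 on replicates 2 and 3 of wild-type and 2, 4 and 5 of the mutant, and 5.25 to 7.35 elsewhere. The spermatocyte list (14 of 15 genes) stood at 8.31 to 8.77 in wild-type and 8.4 to 8.61 in mutant. It holds *tbrd-1* itself (-5.83), and its genes did not move alike, with 2 called lower, 3 called higher and a median of 0.09. The spermatid list (13 of 14 genes) stood at 12.97 to 13.12 and 13.2 to 13.25, with 0 called lower and 1 higher. Accessory gland genes (15 of 17) were as bright as the spermatid genes, at 13.06 to 13.19 and 13.01 to 13.23. Muscle genes (14 of 17) averaged 8.26 to 8.53 and 7.86 to 8.23, fat body genes (9 of 12) 6.57 to 6.82 and 6.22 to 6.49 (with *Yp3* at a log2-fold change of -3.80, *Apoltp* at -0.93 and a list median of 0.13), the ejaculatory bulb and duct list (5 of 6) 9.26 to 12.59 and 9.67 to 12.77, and cyst cell, hub and terminal epithelium genes (7 of 9) 6.15 to 6.5 and 6.18 to 6.32. No listed marker was at 0, since the lowest deposited value of any probe set is 5.

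In wild-type testes the UGT genes covered nearly the whole range of signals. The signal of *Ugt50B3* lay at percentile 91.7 of all probe sets, that of *Ugt305A1* at 89.3, *Ugt35B1* at 88.2, *Ugt302C1* at 79.8 and *Ugt35A1* at 78.1. These 5 genes were the brightest, 14 lay above the median of all probe sets, and 13 were dim, with a mean log2 signal over all arrays that corresponds to less than 27.1. A signal depends on the probes as well as the transcript, so the percentiles do not order the transcripts by amount, and the table holds no detection calls. A wild-type mean under 30 was found in 11 members, and 13 had a mean of 100 or more.

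*Ugt50B3* belongs to a UGT family that is conserved across insects. Its signals were 1894, 1872, 1607, 2358 and 1662 in wild-type and 1686, 1588, 1807, 2105 and 1919 in mutant testes. The groups overlapped throughout, with a change of -0.04 ± 0.11 (SE, adjusted p = 0.802). Its probe set, like those of *Ugt36E1* and *Ugt37D1*, carries the suffix by which the manufacturer marks probes shared by several transcripts.

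*Ugt305A1*, once named *Tes36*, had signals of 1441, 1447, 1339, 1483 and 1294 in wild-type testes and of 1537, 1841, 1506, 1521 and 1611 in mutant testes. Every mutant array lay above every wild-type array, although the change was small, at 0.19 ± 0.07 (SE), with an adjusted p of 0.0497. The adjusted p was above 0.05 in 9 of the 10 fits that left out 1 array, the exception being the fit without mutant replicate 3.

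*Ugt35B1* is known from the olfactory organs of the antenna. In testes its signals were 1245, 1083, 1376, 1090 and 1469 in wild-type and 1458, 1280, 1630, 1641 and 1348 in mutant, a difference of 0.24 ± 0.11 on the log2 scale (SE, adjusted p = 0.102). The groups overlapped. Mutant replicates 3 and 4 lay above all wild-type arrays, replicate 1 above 4 of the 5, and replicates 2 and 5 within the wild-type range.

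*Ugt302C1* was the only one of the 4 members with the highest percentiles that fell. Its signals were 537, 567, 637, 547 and 546 in wild-type and 387, 363, 536, 419 and 438 in mutant testes. No mutant array reached the lowest wild-type array, although mutant replicate 3 came within 1 unit of it. The log2-fold change was -0.41 ± 0.10 (SE, adjusted p = 0.00757), under the fold minimum. It was -0.25 (adjusted p = 0.322) on the 5 arrays without high *Ebp* and -0.33 (adjusted p = 0.11) on the 6 arrays that were not tubule-bright. Without the gut-bright arrays it was -0.47 (adjusted p = 0.0161). With 1 array left out in turn it was -0.50 to -0.36, with adjusted p up to 0.0226.

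**Figure D1:**
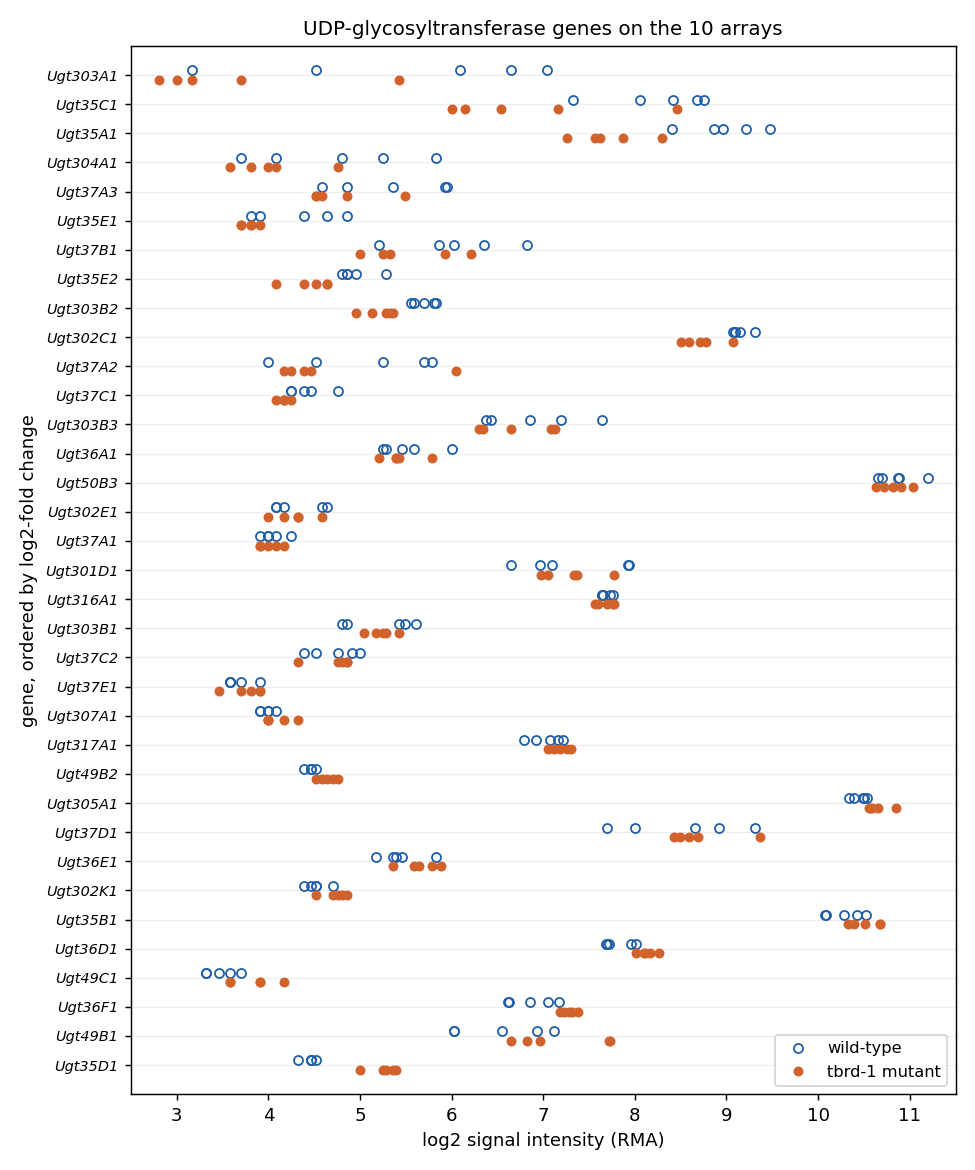
The log2 signal intensity (horizontal axis) of the 35 UGT genes (rows, ordered by log2-fold change) on 5 wild-type arrays (open circles) and 5 *tbrd-1* mutant arrays (filled circles). The 3 brightest rows are *Ugt50B3*, *Ugt305A1* and *Ugt35B1*, and the points of *Ugt303A1* spread over the widest range in wild-type.

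Of the 35 UGT genes, 2 were called lower in mutant testes (5.71%), none was called higher and 33 were not called. Over all probe sets 2.36% were called lower and 1.18% higher, and over 1 probe set per gene 3.06% and 1.4%. The 2 genes are *Ugt35A1* and *Ugt35C1*, both of family 35. At an unadjusted p under 0.05, 8 of the 35 members were lower and 9 higher, and of all 11982 genes 2805 were lower and 3367 higher. No difference from all genes was tested. The methods' t-test with the same thresholds called 1 of the 35 lower, *Ugt35A1*, and 0 higher, against 336 and 167 of all 11982 genes. Over all probe sets it called 2.18% lower and 1.17% higher.

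*Ugt35A1* (CG6644) encodes one of the first fly UGTs to be described, and its transcript is found in many adult tissues. Its signals were 593, 338, 711, 499 and 467 in wild-type testes and 196, 190, 315, 234 and 153 in mutant testes. The highest mutant array, replicate 3, lay under the lowest wild-type array, replicate 2. The mean fell from 522 ± 140 to 218 ± 61.6 (SD, n = 5 each), or 2.40-fold, with a log2-fold change of -1.26 ± 0.22 (SE, adjusted p = 0.00096). The call held with each array left out in turn, with changes of -1.41 to -1.14. In whole-testis RNA, fewer cells of a type and less RNA per cell cannot be told apart.

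*Ugt35C1* (CG6633), long known as *Ugt86Dd*, has been linked to nicotine resistance in flies. Its signals were 433, 160, 409, 266 and 341 in wild-type and 93, 143, 352, 71 and 64 in mutant testes. The groups overlapped, because mutant replicate 3 was brighter than 3 wild-type arrays and wild-type replicate 2 was close to mutant replicate 2. The mean was 322 ± 111 in wild-type and 145 ± 120 in mutant (SD), and the log2-fold change was -1.38 ± 0.44 (SE, adjusted p = 0.0306). The call was lost when wild-type replicate 1, 3 or 4 or mutant replicate 1, 4 or 5 was left out, with adjusted p up to 0.0742.

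For neither gene were the arrays bright in gut, tubule or ejaculatory bulb transcripts all above the other arrays of both genotypes. Within each genotype the gut-bright arrays were highest for *Ugt35A1*. They had 593, 711 and 499 in wild-type (others 338 and 467) and 315 in mutant testes (others 153 to 234). For *Ugt35C1* the tubule-bright wild-type arrays were highest (433, 409 and 341, others 160 and 266). Mutant replicates 3 and 2, the highest mutant arrays in tubule genes, had 352 and 143 (others 64 to 93). On the 6 arrays that were not bright in gut enzymes (2 wild-type and 4 mutant), *Ugt35A1* was still called (-1.06, adjusted p = 0.0125), and the change of *Ugt35C1* was -1.41 with an adjusted p of 0.0572. Without the 4 arrays bright in tubule genes, also leaving 2 wild-type and 4 mutant, *Ugt35A1* changed by -0.92 (adjusted p = 0.0673) and *Ugt35C1* by -0.90 (adjusted p = 0.373). When the 5 arrays with high *Ebp* and *EbpII* were left out, leaving 3 wild-type and 2 mutant, the values were -1.06 (adjusted p = 0.0505) and -0.91 (adjusted p = 0.365). With the gut list mean as a covariate over all 10 arrays, *Ugt35A1* changed by -0.97 with an adjusted p of 0.000585, just short of the fold minimum, and *Ugt35C1* by -0.88 (adjusted p = 0.0954). Of the 9 tubule genes 1 was called lower, the potassium channel gene *Irk3* (-1.99 ± 0.46, SE, adjusted p = 0.00613), and *Prip* was also lower without the fold minimum (-0.40, adjusted p = 0.00132). The other 7 did not pass the adjusted p, and the list ranged from -1.99 to 0.21 with a median of -0.29. Of the 32 gut genes none was called, and without the fold minimum 0 were lower and 3 higher. Their changes ranged nonetheless from -3.44 to 0.61 with a median of -1.49, with wide spread between replicates. Whether RNA of these organs contributes to the 2 calls was not tested.

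The largest difference in either direction was that of *Ugt303A1*, which was not called. Its signals were 100, 23, 132, 68 and 9 in wild-type and 8, 13, 43, 9 and 7 in mutant testes. The wild-type arrays alone spanned 9 to 132, and the 4 highest of the 10 values were those of the 4 gut-bright arrays. The log2-fold change was -1.87 ± 0.74 (SE, adjusted p = 0.0676). Without the gut-bright arrays the change was -0.68 (adjusted p = 0.307), and with the gut list mean as a covariate -0.67 (adjusted p = 0.00964). The gene was singled out after its values were seen.

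Without the fold minimum, 6 members were past the adjusted p in the lower direction (17.1%) and 6 in the higher (17.1%), while 23 were past it in neither. The shares were 14.7% lower and 21.6% higher over all probe sets, and 19.2% and 22.8% over 1 probe set per gene. In 4 members the mutant arrays were all below the lowest wild-type array (11.4%, against 13.8% of all genes), and in 3 members they were all above the highest (8.57%, against 16.3%). The median change of the 35 genes was -0.01, with a range of -1.87 to 0.81, while the median of all genes was 0.03. The change was negative in 20 members and positive in 15, and 26 changed by less than 0.5.

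The deposited array medians were 68 to 77 in wild-type and 67 to 70 in mutant testes. Centring each array on its median moved every log2-fold change up by 0.10, the median of all probe sets from 0.07 to 0.17 and the median of the UGT genes to 0.09. The same 6 lower genes then stood beside 10 higher genes, the 6 above with *Ugt302K1*, *Ugt35B1*, *Ugt36E1* and *Ugt49B1*. The calls at the fold minimum over all probe sets became 1.96% lower and 1.57% higher, and those of the UGT genes stayed at *Ugt35A1* and *Ugt35C1*.

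**Figure D2:**
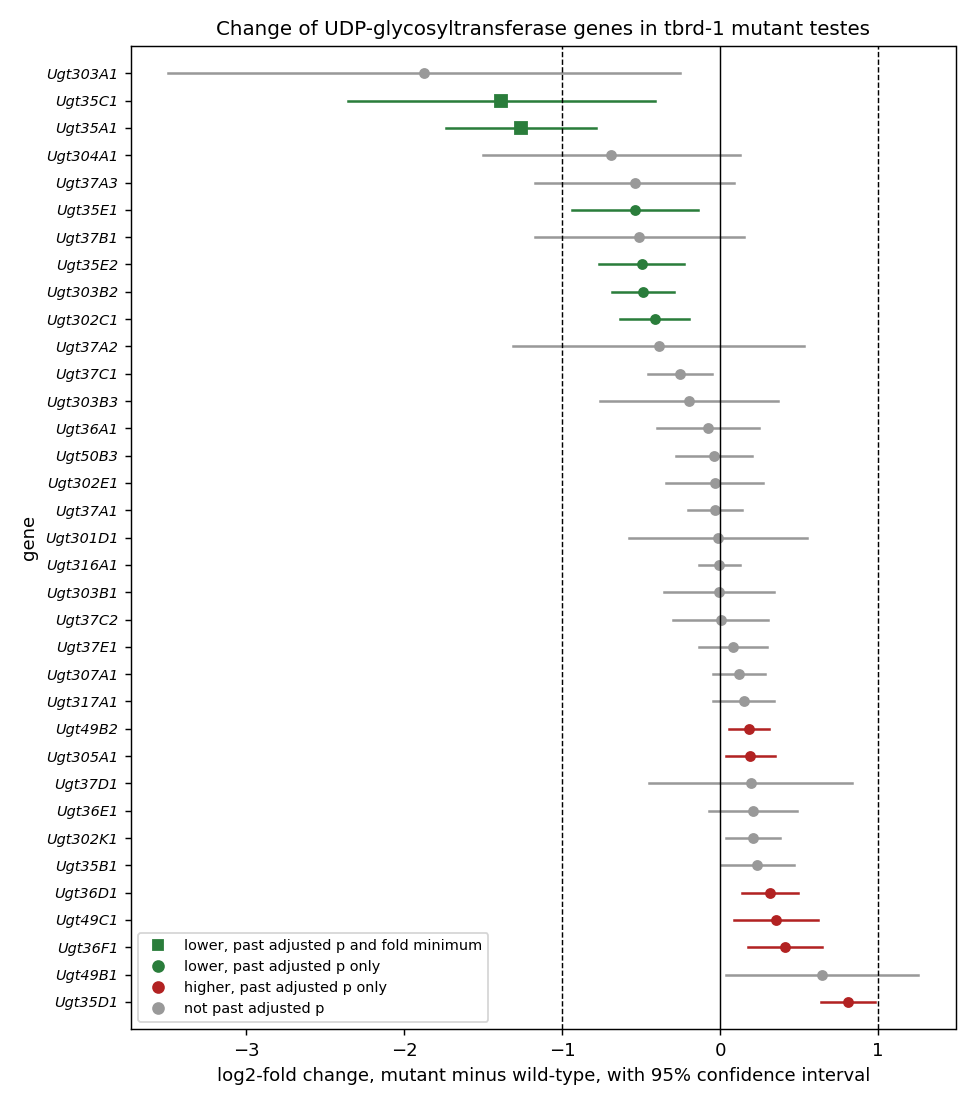
The log2-fold change of mutant against wild-type (horizontal axis) for each of the 35 UGT genes (rows), with 95% confidence intervals from limma and dashed lines at the fold minimum of 1. Squares mark *Ugt35A1* and *Ugt35C1*, the 2 called genes, and the wide interval of *Ugt303A1* includes values from -3.49 to -0.26.

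*Ugt35D1* was the member with the clearest increase. Its signals were 22, 22, 22, 20 and 23 in wild-type and 42, 32, 38, 41 and 39 in mutant testes. All mutant arrays lay above all wild-type arrays, on both sides at the dim end of the scale. The mean rose 1.76-fold, from 21.8 ± 1.10 to 38.4 ± 3.91 (SD, n = 5 each), a log2-fold change of 0.81 ± 0.08 (SE, adjusted p = 1.26e-05). The adjusted p stayed under 0.05 in each of the 14 other settings that gave it a change and with each array left out, and a fold minimum of 1.5 would call the gene higher.

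*Ugt35E1* fell without reaching the fold minimum. The signals were 25, 14, 29, 21 and 15 in wild-type and 14, 13, 15, 13 and 14 in mutant testes, with a change of -0.54 ± 0.18 (SE, adjusted p = 0.0384). The mutant arrays were nearly level, while the 3 gut-bright wild-type arrays were the brightest of all 10. Without the 4 gut-bright arrays the change was -0.10 (adjusted p = 0.398), and the adjusted p was above 0.05 in 8 of the 10 fits with 1 array removed.

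The other members past the adjusted p moved by less than 0.5. *Ugt35E2* went from 31.2 ± 4.49 to 22.2 ± 3.35 (SD) and *Ugt303B2* from 52 ± 4.53 to 37.2 ± 4.15, both by -0.49, with adjusted p-values of 0.0089 and 0.00155 and no overlap of the groups. In the other direction, *Ugt36F1* rose by 0.41 (adjusted p = 0.012), from 98 to 144 in wild-type to 145 to 167 in mutant testes. *Ugt36D1* rose by 0.32 (adjusted p = 0.0107), the groups touching at 259. *Ugt49C1* rose by 0.35 and *Ugt49B2* by 0.18 (adjusted p = 0.0408 and 0.0278), both with signals of 27 or less on every array.

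By family, the 6 genes of family 35 held both calls, 4 genes lower and *Ugt35D1* higher without the fold minimum, and only *Ugt35B1* past the adjusted p in neither direction. In family 36, *Ugt36F1* and *Ugt36D1* rose. *Ugt36E1*, known in flies from the sensing of a pheromone, changed by 0.21 (adjusted p = 0.22), and *Ugt36A1*, also called Dorothy, by -0.08 (adjusted p = 0.708). None of the 8 genes of family 37 passed the adjusted p, with changes of -0.54 to 0.20. In family 49, *Ugt49B2* and *Ugt49C1* rose, and *Ugt49B1*, with the largest change of the family, did not pass. Of families 302 and 303, *Ugt302C1* and *Ugt303B2* fell and 5 others did not pass. *Ugt305A1* was the only one of the 7 single-gene families past the adjusted p. *Ugt316A1*, at 199 to 217 in wild-type and 189 to 218 in mutant testes, had one of the smallest differences, -0.01 ± 0.06 (SE).

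The members lie on 4 chromosome arms, 17 on 3R, 11 on 2L, 5 on 2R and 2 on 3L. The 6 lower genes were all among the 17 on 3R, 2 of whose other members rose. The paper cites males with the mutant allele over deletions of 3R, so *tbrd-1* lies on the same arm. Effects of other differences between the mutant and w1118 chromosomes were not tested. No share of lower genes among all genes of 3R is given here. In the gene order of the RefSeq table for this species, 23 members lie in 6 runs with at most 4 other protein-coding genes between neighbours, and 12 lie alone. The longest run, on 3R, holds 10 members in the order *Ugt35C1*, *Ugt302K1*, *Ugt302E1*, *Ugt302C1*, *Ugt35E1*, *Ugt35E2*, *Ugt35B1*, *Ugt35A1*, *Ugt304A1* and *Ugt303A1*. Changes along the run went from -1.87 to 0.24 with a median of -0.52. Without the fold minimum 5 of the 10 genes were lower and 0 higher, where the shares over all genes were 19.2% and 22.8%. Of these 5, *Ugt35E1* and *Ugt35E2* were among the dim members. None of the 5 stayed past the adjusted p without the *Ebp*-bright arrays or without the tubule-bright arrays. Without the gut-bright arrays *Ugt302C1* and *Ugt35A1* did. These fits hold fewer arrays.

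The values differed along the run. *Ugt35B1* stands between *Ugt35E2*, at -0.49, and *Ugt35A1*, at -1.26, and its own difference was 0.24. The log2 signal of *Ugt35A1* minus that of its neighbour *Ugt35B1* was -1.07, -1.68, -0.95, -1.13 and -1.65 on the wild-type arrays and -2.90, -2.75, -2.37, -2.81 and -3.14 on the mutant arrays. The groups were separate, and the mean went from -1.30 ± 0.34 to -2.79 ± 0.28 (SD). The pair was chosen after its values were seen, so the separation is given as a description with no test. Array-wide scaling cancels in this difference, which does not show that either gene stayed constant.

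**Figure D3:**
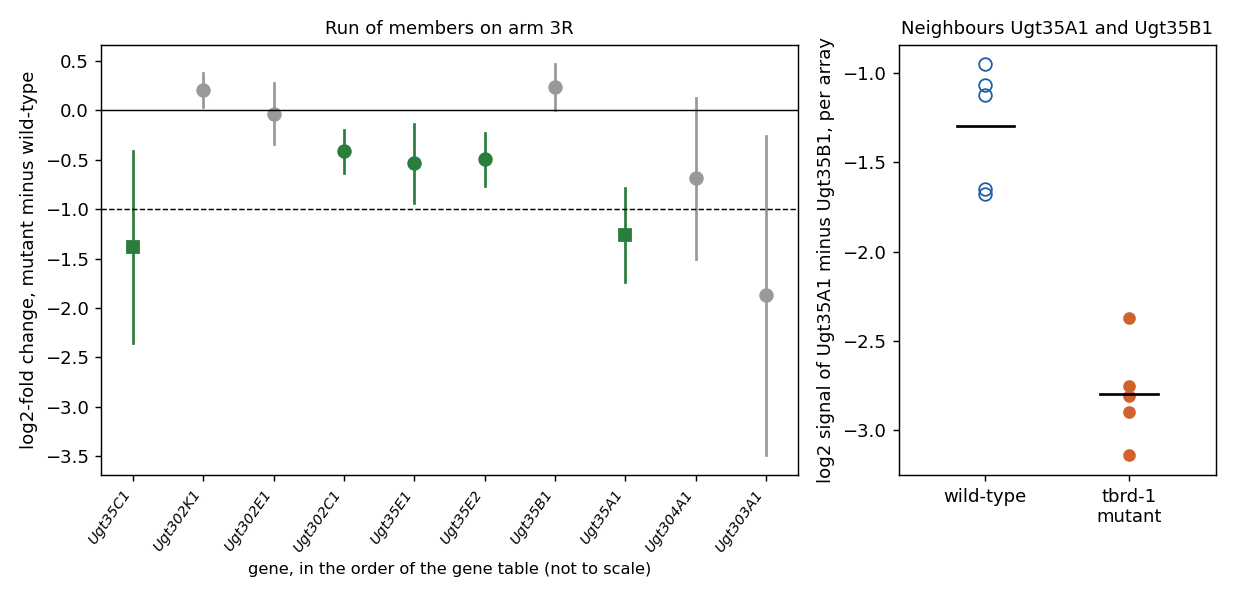
Left, log2-fold change of mutant against wild-type with 95% confidence intervals (vertical axis) for the 10 neighbouring UGT genes on 3R in gene order, with the called genes as squares and the fold minimum dashed. Right, log2 signal of *Ugt35A1* minus that of *Ugt35B1* on each array (points) with group means (bars), -1.30 in wild-type and -2.79 in mutant testes.

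The shorter runs varied as well. *Ugt36F1*, *Ugt36D1* and *Ugt36E1* on 2L had changes of 0.41, 0.32 and 0.21, the first 2 past the adjusted p. *Ugt37C2*, *Ugt37E1* and *Ugt37D1* on 2L differed by 0.00 to 0.20, and *Ugt37A2* and *Ugt37A3* on 3R by -0.39 and -0.54, none past it. In the run of *Ugt303B3*, *Ugt303B1* and *Ugt303B2* only the last fell, and of *Ugt49B1* and *Ugt49C1* only the second rose. Genes of a run are related in sequence, and how far probes of one gene bind the transcript of another was not tested.

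Replicate spread of the UGT genes was wide. Of the 35 genes, 12 (34.3%) lay in the top 5% of all probe sets by SD of the log2 signal in wild-type, against 6.17% of all genes, and 11 (31.4%) did so in mutant testes, against 6.5%. Both genotypes shared 11 such genes (31.4%, against 3.87% of all genes), *Ugt301D1*, *Ugt303A1*, *Ugt303B3*, *Ugt304A1*, *Ugt35A1*, *Ugt35C1*, *Ugt37A2*, *Ugt37A3*, *Ugt37B1*, *Ugt37D1* and *Ugt49B1*. The median SD was 0.24 in wild-type and 0.20 in mutant testes on the log2 scale, where all genes had 0.14 and 0.12.

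In some of these genes the spread lay between the same arrays. In *Ugt303A1*, *Ugt304A1*, *Ugt36A1*, *Ugt37A2*, *Ugt37A3* and *Ugt37B1* the 4 gut-bright arrays were higher than all 6 others, which made 6 of 35 genes (17.1%) against 2.49% of all genes. The shares were 12% of the cytochrome P450 genes (10 of 83) and 8.82% of the glutathione S-transferase genes (3 of 34), and no difference between families was tested. *Ugt37A2* had 55, 52 and 38 on the gut-bright wild-type arrays and 66 on the gut-bright mutant array, with 16 to 23 on the remaining ones. *Ugt37A3* had 61, 62, 41 and 45 on the same arrays and 23 to 29 on the remaining ones. For *Ugt304A1* the values were 38, 57, 28 and 27 against 12 to 17, and its change of -0.69 did not pass (adjusted p = 0.167). *Ugt36A1* was not among the 12 genes of wide spread, and its lowest gut-bright array had 44 where the highest other array had 43. The 4 arrays include 3 of the 5 wild-type arrays and 1 of the 5 mutant arrays. All 6 genes had a higher mean in wild-type than in mutant testes, and how much of this comes from the unequal split was not tested. The part of gut RNA in these values was not tested.

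**Figure D4:**
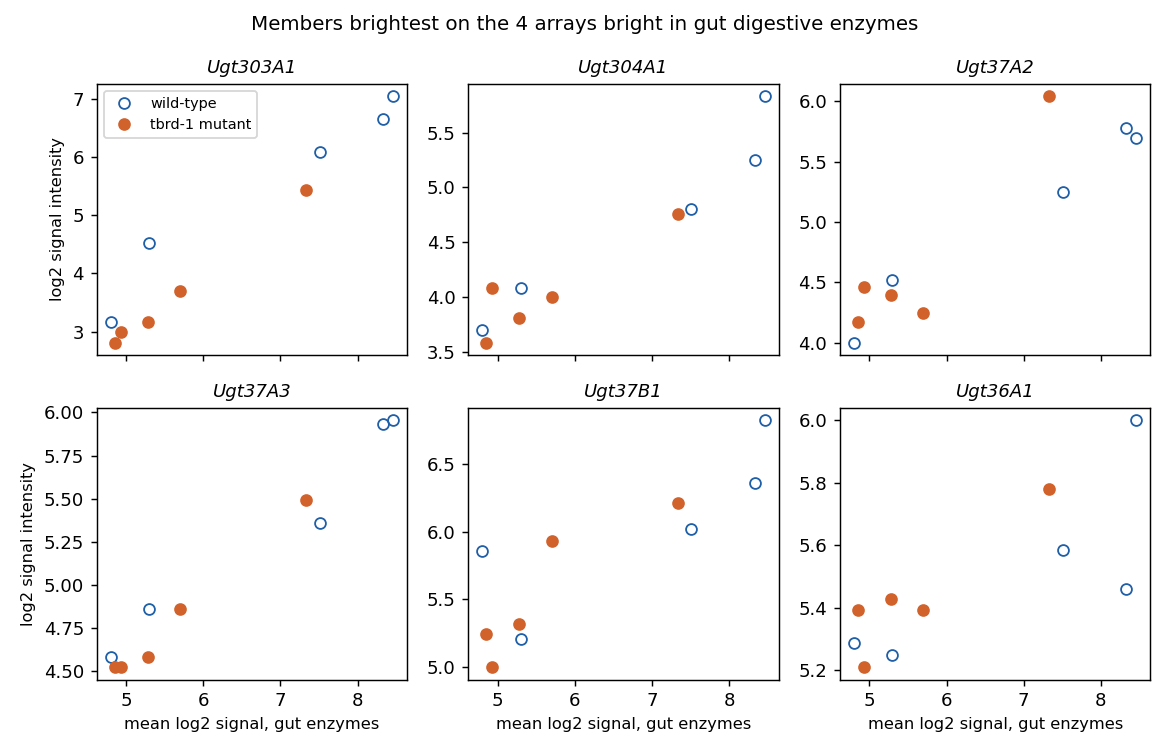
Log2 signal (vertical axes, each with its own scale) of 6 UGT genes against the mean log2 signal of 32 gut digestive enzymes (horizontal axes) on 5 wild-type (open) and 5 mutant (filled) arrays. In each panel the 4 arrays with a gut mean of 7.33 to 8.46 lie above the 6 arrays at 4.8 to 5.7.

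*Ugt37D1*, a bright gene of family 37 singled out after its values were seen, had signals of 483, 257, 635, 405 and 207 in wild-type and 345, 386, 658, 414 and 359 in mutant testes. The wild-type arrays stood in the same order as for the gut enzymes, and mutant replicate 3, the gut-bright one, was the highest of all. The difference was 0.20 ± 0.29 (SE, adjusted p = 0.623) over all arrays, 0.70 (adjusted p = 0.00889) on the 6 arrays without high gut signal and 0.67 (adjusted p = 0.00022) with the gut list as a covariate. Without wild-type replicate 5 it was -0.01 (adjusted p = 0.977).

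*Ugt49B1*, also singled out afterwards, followed the tubule genes more closely. Its signals were 122, 65, 139, 65 and 94 in wild-type and 125, 210, 212, 100 and 113 in mutant testes. In wild-type the 3 tubule-bright arrays, replicates 1, 3 and 5, were the highest, and in mutant testes replicates 2 and 3, which were also highest in tubule genes. The change was 0.64 ± 0.28 (SE, adjusted p = 0.0911), and it was 1.02 both without the tubule-bright arrays (adjusted p = 0.0462) and with the tubule list as a covariate (adjusted p = 0.000299), where the gene was called higher. No member had all 4 tubule-bright arrays above the other 6 (0 of 35, against 0.785% of all genes).

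Enzymes that supply UDP-sugars or use them in other ways were counted in the same fit. None of the 41 measured genes in 5 lists was called (10 of 12 for UDP-sugar synthesis, 3 of 4 transporters, 17 of 18 other glycosyltransferases, 5 of 7 other conjugation enzymes and 6 of 6 regulators of detoxification genes). Without the fold minimum, 10 were lower (24.4%) and 7 higher (17.1%), where all genes gave 19.2% and 22.8%. The genes named here were picked after their values were seen. *UGP*, which makes UDP-glucose, the usual sugar donor of insect UGTs, was dim and went from 23.4 ± 2.97 to 16.4 ± 2.41 (SD), a change of -0.52 (adjusted p = 0.00585). *sgl*, the dehydrogenase that turns UDP-glucose into UDP-glucuronic acid, had a mean of 279 in wild-type and 271 in mutant testes (0.03, adjusted p = 0.918).

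Of the 10 measured genes for UDP-sugar synthesis, 3 rose and 1, *UGP*, fell without the fold minimum. *Galk*, galactokinase, went from 563 ± 83.7 to 795 ± 69.7 (0.51, adjusted p = 0.00277). *Gfat1* and *mmy*, at the entry and the last step of UDP-N-acetylglucosamine synthesis, rose by 0.47 (adjusted p = 0.00122) and 0.30 (adjusted p = 0.0054). Of the transporters that carry UDP-sugars into the secretory pathway, *Ugalt* fell by 0.35 on the log2 scale (adjusted p = 0.0326) and *senju* rose by 0.29 (adjusted p = 0.00328).

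Of the 17 measured glycosyltransferases outside the UGT family, 7 were lower and 1 was higher without the fold minimum. Over all genes 19.2% were lower and 22.8% higher. The list was not tested as a set. *GlcAT-I*, which adds glucuronic acid in the linker of proteoglycans, had 207 to 261 in wild-type and 119 to 131 in mutant testes, a change of -0.93 ± 0.07 (SE, adjusted p = 1.73e-06). *Glys*, glycogen synthase, had 508 to 674 and 253 to 374, also -0.93 (adjusted p = 0.000192). Both were just short of the fold minimum, with groups that did not overlap. Of the sulfotransferases, which conjugate sulfate to small molecules, *St1* fell by 0.57 on the log2 scale (adjusted p = 0.000392) and *St4* rose by 0.81 (adjusted p = 6.83e-05). *maf-S*, the small Maf partner of the detoxification regulator encoded by *cnc*, rose by 0.44 (adjusted p = 0.00123).

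Other detoxification families were counted in the same way. Of 83 cytochrome P450 genes, 8 were called lower and 3 higher (9.64% and 3.61%), with a median change of -0.23. Of 34 glutathione S-transferase genes, 2 were called lower and 0 higher (5.88% and 0%), with a median of -0.07. Whether the families differ from the UGT genes was not tested.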

How the data were processed

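The authors isolated RNA from whole testes, hybridised it to 1-colour arrays and normalized with RMA in Affymetrix Expression Console (the sources used here give no versions). Values are deposited as normalized intensity on a linear scale, rounded to whole numbers, for 18952 probe sets on 10 arrays. RMA makes arrays alike in distribution and shrinks differences of dim probe sets. Precision is limited by the number of arrays, 5 per group.

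From these, 183 control probe sets were left out, log2 values were taken of the deposited intensities, and 18769 probe sets were fitted with limma 3.58.1 in R 4.3.3 (lmFit, eBayes, genotype only), with Benjamini-Hochberg adjustment. Calls needed an adjusted p no higher than 0.05 and a log2-fold change of 1 or more in size, as in the study's methods, which also name a t-test. Probe sets were named through GEO's platform annotation, updated with a RefSeq gene table: 13647 had 1 gene and 402 several. The build behind the table of values is not given in the sources used here, so the RefSeq table served for names, arms and gene order only.

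Full values are given for called members, for members past the adjusted p with a change of at least 0.5, and for the 4 with the highest wild-type percentile. The members and all gene lists were chosen with earlier results of these data known. In simulated data on 18769 probe sets, 86% to 100% of 50 probe sets each with changes of -2, -1.5, 1.5 and 2 were called, with 1 wrong call. The simulated noise was independent for each probe set and array, and no smaller change was simulated. It therefore does not cover the smaller changes of the 2 called UGT genes or spread that several genes share on the same arrays. Nothing says that replicate numbers pair arrays. Each array is a separate pool of animals. Alternatives were other tests, priors, weights, filters, scalings and fold minimums, and fits without single arrays or arrays bright in other organs. The covariate fits were added after seeing the data. Figures were drawn with matplotlib 3.10.9.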

Additional observations from a re-analysis of the deposited data

Results flagged for a closer look

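Within each genotype, 70 groups of 5 arrays (35 UGT genes in 2 genotypes) were examined for 1 array far from the others, and 3 groups (4.29%), all of mutant testes and all of family 37, held one. Chance gives about 1 in 20. *Ugt37A2* had a signal of 66 on mutant replicate 3, where the other mutant arrays had 18 to 22. *Ugt37D1* had 658 on the same array, where the others had 345 to 414. This is the mutant array that was bright in gut enzymes, and the part of gut RNA in both values was not tested. *Ugt37C2* had 20 on mutant replicate 5, where the others had 27 to 29.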

How the results depend on the processing

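The count of UGT genes called lower, 2 in the report, was 3 with array quality weights (*Ugt303A1* added at -2.35, adjusted p = 0.0114), 1 with the methods' t-test, with a robust prior, without the gut-bright arrays and with the tubule list as a covariate, and 0 without the *Ebp*-bright arrays, without the tubule-bright arrays and with the gut list as a covariate. In these settings 1.94% (without the *Ebp*-bright arrays) to 3.11% (array quality weights) of all probe sets were called lower. The count called higher, 0 in the report, was 1 with a fold minimum of 1.5 (*Ugt35D1*). It was also 1 without the tubule-bright arrays and with the tubule covariate (*Ugt49B1* in both). The shares of all probe sets called higher were 4.26%, 1.04% and 1.16%, in that order. Without a fold minimum, the 6 lower genes became 10 with array quality weights, 3 without the gut-bright arrays, 0 without the *Ebp*-bright arrays and 1 without the tubule-bright arrays, and the 6 higher genes became 10 with median centring and 2, 1 and 3 without the same sets of arrays. These sets leave 5 or 6 arrays. The median change was 0.091 with centring, 0.12 without the gut-bright arrays and 0.12 with the gut covariate. Of the supply and conjugation genes, 3 were called at a fold minimum of 1.5 (*GlcAT-I*, *Glys* and *St4*).

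With 1 array left out in turn, 1 to 3 UGT genes were called lower (3 without wild-type replicate 5 or mutant replicate 3, with *Ugt303A1* added) and 0 higher. Without a fold minimum 4 to 9 were lower and 3 to 7 higher (3 without wild-type replicate 4), the median was -0.076 to 0.047, and 0 to 1 supply genes were called. *Ugt50B3*, never past the adjusted p, turned positive with centring (0.065), without the gut-bright arrays (0.040) and without wild-type replicate 4 or mutant replicate 2, within a range of -0.093 to 0.047 over single arrays left out. *Ugt37D1* ranged from -0.010, without wild-type replicate 5, to 0.394. The cause of these changes was not tested.

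Whole arrays correlated with one another at 0.9634 to 0.996. The check of pairing used another correlation, not that of the whole arrays. In it, same-numbered wild-type and mutant arrays stood at -0.315 to 0.482, over 0.1 in 2 of 5 pairs. Only wild-type replicate 3 had its best partner in its own number, so the numbers were not taken as pairing. With a replicate block 3 genes were called lower, *Ugt303A1* being added (-1.87, adjusted p = 0.0224). Using the dimmer probe set of a gene was not run, since each member has 1. For the 13 dim members the files hold no detection calls, so a small change there cannot be told from background.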
